A study of Mus musculus with 4 samples.

Results

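Genes of the endoplasmic reticulum (ER) stress response and of secretory protein folding were followed through every library and marker-defined cell class of a mouse intestinal single-cell series. The members are Xbp1, Hspa5, Hsp90b1, Atf4, Ddit3, Creb3l1, Ern2, Pdia4, Dnajb9 and Sdf2l1. They are the rows with these symbols, and all 10 members were present among the 31054 features of each of the 4 matrices. The mice carried Bmi1-GFP, a fluorescent reporter for Bmi1, a Polycomb gene used to mark reserve stem cells and endocrine cells of the crypt. Intestinal epithelial cells that express it were collected by flow cytometry and profiled by 10x Genomics 3' single-cell RNA sequencing. The 4 libraries are from embryos at day 12.5 (E12.5) and day 17.5 (E17.5) and from adult mice without and with irradiation, and each group holds 1 library. All 4 groups carry the reporter. The irradiation dose, the interval before sampling, the sort gates and the number and sex of the animals are not given in the sources used here.

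Proteins bound for secretion fold in the ER, where Hspa5 (BiP) and Hsp90b1 (GRP94) are the main HSP70 and HSP90 chaperones, Pdia4 is a disulfide isomerase, Dnajb9 (ERdj4) is a co-chaperone of BiP linked to ER-associated degradation, and Sdf2l1 works with BiP cofactors to hold unfolded proteins in solution. When unfolded protein accumulates, the kinases IRE1 and PERK and the membrane-bound factor ATF6 raise the folding capacity: IRE1 splices Xbp1 mRNA into the form that encodes an active transcription factor, and PERK favours translation of Atf4, which activates Ddit3 (CHOP), a factor associated with prolonged stress. Ern2 encodes IRE1β, the IRE1 isoform of mucus-producing gut epithelium, and Creb3l1 (OASIS) encodes a membrane-bound CREB/ATF factor related to ATF6. In the intestine this machinery is best known from the secretory lineage, namely goblet cells that make mucins, Paneth cells that make defensins and lysozyme, and enteroendocrine cells that make hormones. The 3' counts do not tell spliced from unspliced Xbp1, and the splicing and translation steps of the response are not measured directly by these levels.

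On the GRCm38 genome with the GENCODE M21 annotation, the transcription factor genes are Xbp1 (ENSMUSG00000020484, chr11:5520659-5525893, plus strand), Atf4 (ENSMUSG00000042406, chr15:80255184-80257541, plus), Ddit3 (ENSMUSG00000025408, chr10:127290774-127296288, plus) and Creb3l1 (ENSMUSG00000027230, chr2:91982328-92024502, minus). The sensor Ern2 (ENSMUSG00000030866) is at chr7:122169893-122186207 on the minus strand. The chaperone and folding genes are Hspa5 (ENSMUSG00000026864, chr2:34771970-34777547, plus), Hsp90b1 (ENSMUSG00000020048, chr10:86690209-86705509, minus), Pdia4 (ENSMUSG00000025823, chr6:47796141-47813430, minus), Dnajb9 (ENSMUSG00000014905, chr12:44205559-44210326, minus) and Sdf2l1 (ENSMUSG00000022769, chr16:17130138-17132383, minus).

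Hspa5 and Hsp90b1, the central ER chaperones, are the members whose promoters hold the textbook ER stress response element, the site read by ATF6 and XBP1. The 220 bases before the RefSeq start are printed for both, 5′ to 3′ in the direction of transcription, with the element in capitals. The GENCODE gene models of both begin inside these windows, upstream of the RefSeq start.
Hspa5, GRCm38.p6 chr2:34771870-34772089, plus strand: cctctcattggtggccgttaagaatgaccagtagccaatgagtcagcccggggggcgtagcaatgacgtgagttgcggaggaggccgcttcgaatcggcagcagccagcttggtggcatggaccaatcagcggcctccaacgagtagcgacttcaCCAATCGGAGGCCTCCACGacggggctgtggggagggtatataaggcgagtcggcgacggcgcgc
Hsp90b1, GRCm38.p6 chr10:86705445-86705664, minus strand: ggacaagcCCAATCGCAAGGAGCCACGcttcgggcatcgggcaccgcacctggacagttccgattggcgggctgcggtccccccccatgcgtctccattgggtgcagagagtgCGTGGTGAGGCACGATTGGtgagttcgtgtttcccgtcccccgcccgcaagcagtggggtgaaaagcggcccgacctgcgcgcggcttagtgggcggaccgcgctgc
The letters searched were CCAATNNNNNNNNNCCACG on both strands, in the 250 bases before the start. Hspa5 had 1 match, from base -65 to base -47 relative to the RefSeq start. Hsp90b1 had 2, from -212 to -194 on the printed strand and from -107 to -89 on the opposite strand. Of 27025 mouse promoters in the RefSeq table, 33 (0.122%) held this element. RefSeq promoters were matched for 8 of the 10 members (not for Creb3l1 and Ern2), and 2 of the 8 held it. The shorter letters TGACGTGG of the unfolded protein response element were in 0.503% of all promoters and TGATGCAA of the CEBP-ATF element in 0.818%, the ER stress response element II was in 0.0333%, and 0 of the 8 member promoters held any of these. The CCAAT box alone, which the long element contains, was in 34.5% of all promoters and in 7 of the 8. A match is a description of the letters and not evidence of binding.

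Levels are counts of unique molecular identifiers (UMIs, each 1 captured RNA molecule) summed over the cells of a group and divided by all UMIs of that group, per 1000000 UMIs (CPM), with exact 95% Poisson intervals in brackets. These intervals cover counting error only. Cells of 1 library share their animals, sort and preparation, so differences between groups could not be tested against replicates, and no p-value is given. After removal of putative doublets, 4050, 4409, 3597 and 3031 cells of the E12.5, E17.5, adult and irradiated adult libraries had 500 or more genes and no more than 20% of UMIs from mitochondrial genes, and between 0 and 6 of their barcodes were shared by any pair of libraries. The median depth of the epithelial cells was 18233, 11620, 3606 and 8547 UMIs, respectively. A difference is called past 2-fold where log2((CPM + 1)/(CPM + 1)) reached 1 or -1 and at least 1 group held 50 UMIs, and the share of all genes past 2-fold is given as the background. UMIs mark 3' ends and do not scale with gene length, but capture differs between genes, so levels are compared between cells and not between genes.

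Clusters were named from marker lists, with the members and the other listed pathway genes kept out of the clustering. At E17.5 there were 827 enterocyte-like, 170 goblet-like, 1054 enteroendocrine-like, 532 pancreatic acinar-like and 137 pancreatic islet-like cells. The adult library held 89 enterocyte-like, 211 Paneth-like, 2222 enteroendocrine-like and 975 tuft-like cells, and the irradiated adult library 100 enterocyte-like, 80 goblet-like, 95 Paneth-like and 1998 enteroendocrine-like cells. No goblet cluster was named in the adult and no secretory cluster at E12.5. Markers fit the names in most classes, with the following limits. The E17.5 goblet-like cells also held the Paneth defensins (summed Paneth markers 2728 CPM against 4.01 CPM in enterocyte-like cells). The irradiated goblet-like cells held 78106 CPM of Paneth markers beside 257314 CPM of goblet markers. The irradiated enterocyte-like cluster held 7529 CPM of enterocyte markers against 29843 CPM in the adult one, and its leading genes included the cell cycle genes Ccnd1 and Ube2c. The 481 irradiated tuft-like cells held 29905 CPM of enteroendocrine markers against 612 CPM in adult tuft-like cells. They are not compared with other classes, but they count in the library totals and are among the groups of the correlations given below. The adult tuft-like cells held 22209 CPM of enterocyte markers, which bears on their place in the rankings and on their use as a background class for Ern2. Acinar-like and islet-like cells are pancreatic by their markers, although the tissue is labelled intestinal. The E17.5 enteroendocrine-like cells held 4537 CPM of pancreatic islet markers, against 898 CPM in the adult ones and 27.6 CPM in E17.5 enterocyte-like cells. Their acinar markers were 2305 CPM, against 179 CPM in E17.5 enterocyte-like cells, and they include a cluster of 96 cells led by Ppy. The part of pancreatic cells or RNA in the fetal enteroendocrine-like levels was not tested.

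Between the libraries, the transcription factor genes and Ern2 stood in 1 order. Xbp1 was at 70.4 CPM [68.6, 72.3] in E12.5 epithelium and 120 [117, 123] at E17.5, and it reached 152 [147, 156] in adult and 205 [201, 210] in irradiated epithelium. Ddit3 followed with 12.4, 32.5, 85.5 and 109 CPM, and Atf4 with 122, 152, 213 and 246 CPM. Creb3l1 went from 1.46 to 14.2, 22.7 and 36.7 CPM, and Ern2 from 0.0732 CPM (6 UMIs over 4011 cells) to 2.49, 8.54 and 22.4 CPM. For each of these 5 genes the 4 intervals did not overlap, and the later stage was the higher, with the irradiated adult highest. The share of all genes that do the same was not counted, so this order is a description only.

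Of the chaperone and folding genes, Dnajb9 shared that order, and Hspa5, Hsp90b1, Pdia4 and Sdf2l1 did not. Hsp90b1 was 1128 CPM at E12.5 and 1161 at E17.5, and lower in the adult (746) and the irradiated adult (690). Pdia4 was highest at E12.5, with 149, 95.5, 46.6 and 56.4 CPM along the 4 libraries. Sdf2l1 peaked at E17.5 (62.3, 117, 56.3 and 60.9 CPM). Hspa5 moved least, at 763, 721, 897 and 1031 CPM, and Dnajb9 was 31.2, 41.9, 57.7 and 74.3 CPM. Over the embryonic-to-adult step, then, the stress-factor genes were higher and Hsp90b1, Pdia4 and Sdf2l1 lower in the same libraries.

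**Figure D1:**
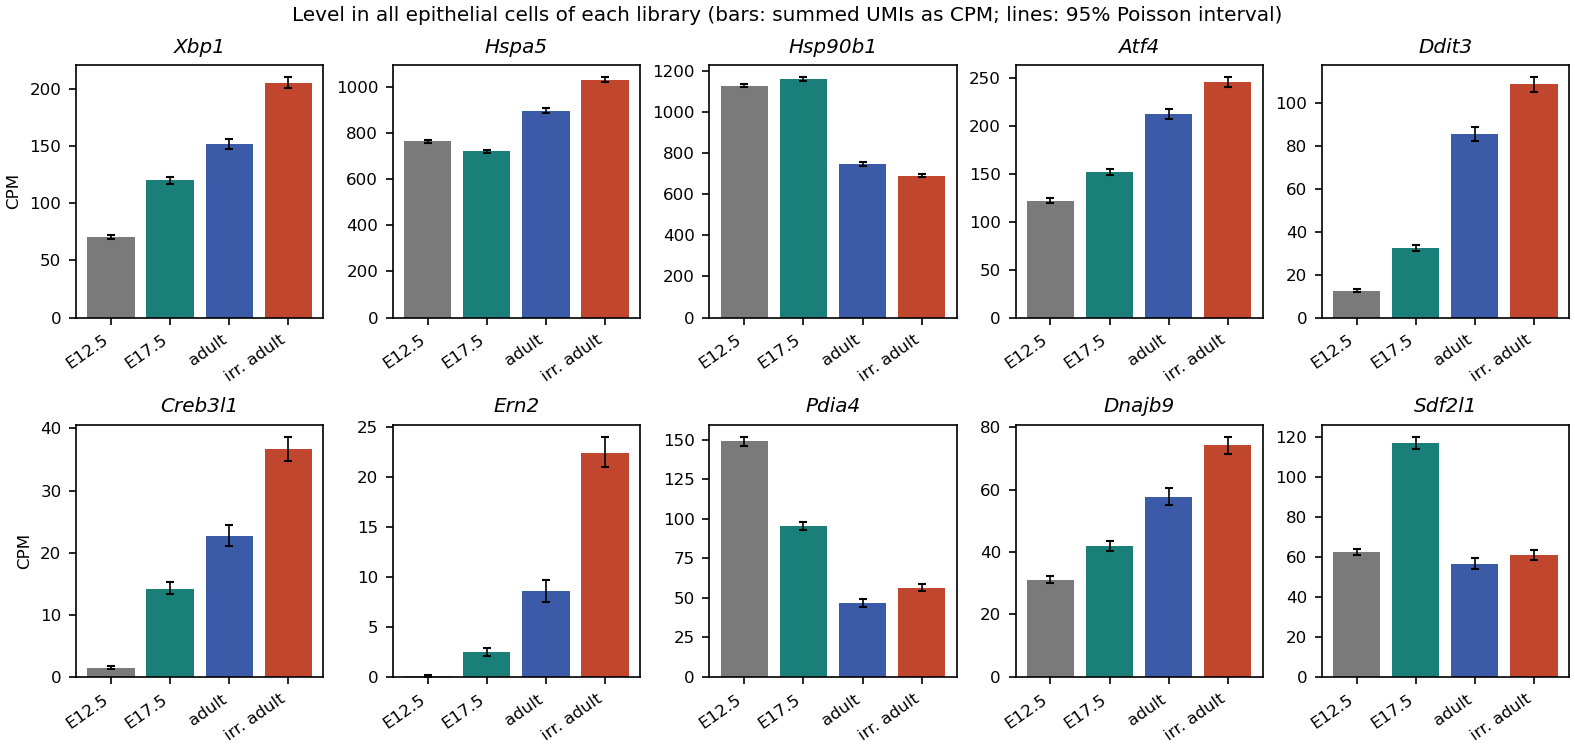
Level of each member in all epithelial cells of the 4 libraries, in CPM (bars, each axis from 0) with 95% Poisson intervals (lines). Xbp1, Atf4, Ddit3, Creb3l1, Ern2 and Dnajb9 are ordered E12.5, E17.5, adult, irradiated adult. Pdia4 is highest at E12.5 (149 CPM) and Sdf2l1 at E17.5 (117 CPM).

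The library differences were read against all genes. From E12.5 to E17.5, 3 of 10 members were past 2-fold higher (Ddit3 2.62-fold [2.43, 2.83], Creb3l1 9.71-fold [8.02, 11.8] and Ern2 34.0-fold [15.3, 94.2], as ratios of CPM) and 0 lower, where 15.5% of 14178 genes were higher and 17.2% lower. From E17.5 to the adult, Ddit3 (2.63-fold [2.48, 2.79]) and Ern2 (3.43-fold [2.80, 4.21]) were higher and Pdia4 (0.487 times [0.459, 0.517]) and Sdf2l1 (0.482 times [0.457, 0.509]) lower, against 14.5% of genes higher and 15.0% lower. Between irradiated and unirradiated adult libraries 1 member was past 2-fold higher, Ern2 (2.63-fold [2.28, 3.03]), and 0 lower, against 3.05% and 5.35%. The median log2 ratios of the members in these 3 comparisons were 0.59, 0.40 and 0.31, and those of all genes -0.21, -0.09 and -0.04. The cell makeup moved with the libraries: the enteroendocrine-like share of epithelial cells was 30.3% in the fetus and then 61.8% (adult) and 65.9% (irradiated), shares that the sort can set, and their part in the library differences was not tested. With 10 CPM added in place of 1, the 8 calls between libraries came down to 2: the 3 of Ern2 (log2 ratios 0.31, 0.57 and 0.81), Ddit3 at E17.5 over E12.5 (0.92), Pdia4 (-0.90) and Sdf2l1 (-0.93) were then under the threshold. The 2 lower calls of the adult were -0.92 (Pdia4) and -0.88 (Sdf2l1) on the log2 scale in cells with at least 5000 UMIs, a restriction chosen after seeing the data.

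Across the epithelial and pancreatic classes the members were ranked by level. Xbp1 was highest in acinar-like cells (351 CPM [337, 365]), then irradiated goblet-like (295 [272, 319]), irradiated enteroendocrine-like (264 [256, 271]) and adult enteroendocrine-like cells (234 [226, 243]), and lowest in adult Paneth-like (54.9 [47.8, 62.8]) and tuft-like cells (54.4 [47.9, 61.6]), which did not differ beyond their intervals. Ddit3 led in the adult (164 [157, 171]) and irradiated (158 [153, 164]) enteroendocrine-like cells, which overlapped, and was lowest in acinar-like cells (11.8 [9.39, 14.7]) and E12.5 epithelium (12.4 [11.6, 13.1]). Atf4 shared the upper end with Ddit3, at 329 and 327 CPM in the same 2 classes, and was lowest in the Paneth-like cells (82.1 and 89.9 CPM). Acinar-like cells therefore paired the highest Xbp1 with a Ddit3 level at the low end, where its interval overlapped that of E12.5 epithelium.

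Creb3l1 and Ern2 both led in goblet-like cells. Creb3l1 was 72.0 CPM [60.9, 84.6] in the irradiated and 65.4 [58.7, 72.6] in the E17.5 goblet-like cells, which overlapped, and 4.24, 10.2 and 7.21 CPM in the E17.5, adult and irradiated enterocyte-like cells. Ern2 reached 130 CPM [115, 146] in irradiated goblet-like cells, followed by irradiated Paneth-like (28.2 [24.4, 32.4]) and E17.5 goblet-like cells (24.5 [20.5, 29.0]), which overlapped. In acinar-like cells Ern2 had 0 UMIs, which allows a level of up to 0.432 CPM (taken as 3 counts of the total), and in islet-like cells 0 UMIs, which allows up to 2.03 CPM. The pancreatic classes, the highest in several chaperones, were thus without a detected Ern2 molecule. Among non-epithelial cells, Creb3l1 was 161 CPM [108, 231] in 22 mesothelial-like cells of E17.5.

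The chaperone genes led in the pancreatic classes. Islet-like cells, which make insulin, had the highest Hspa5 (2197 CPM [2122, 2274]), Hsp90b1 (2127 [2053, 2202]), Pdia4 (296 [269, 325]), Dnajb9 (282 [255, 310]) and Sdf2l1 (774 [730, 821]). Acinar-like cells were next for Hsp90b1 (1670 CPM), Pdia4 (164) and Sdf2l1 (651), while irradiated goblet-like cells were next for Hspa5 (1664 [1609, 1721]). The lowest levels of Hspa5 (254 CPM), Hsp90b1 (154) and Sdf2l1 (23.1) were all in adult Paneth-like cells, on which a separate account follows. Summed over the 10 members, the level was 6061 CPM in islet-like, 4427 in acinar-like, 3710 in irradiated goblet-like, 3325 in irradiated enteroendocrine-like and 3252 in adult enteroendocrine-like cells, and 1624 in adult tuft-like, 1014 in irradiated Paneth-like and 674 in adult Paneth-like cells. Hspa5 and Hsp90b1 hold most of these sums. Without them the sums were, in the same order, 1737, 1395, 1213, 1039 and 981 CPM, and 325, 411 and 267 CPM. Irradiated Paneth-like cells then lay above adult tuft-like cells.

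**Figure D2:**
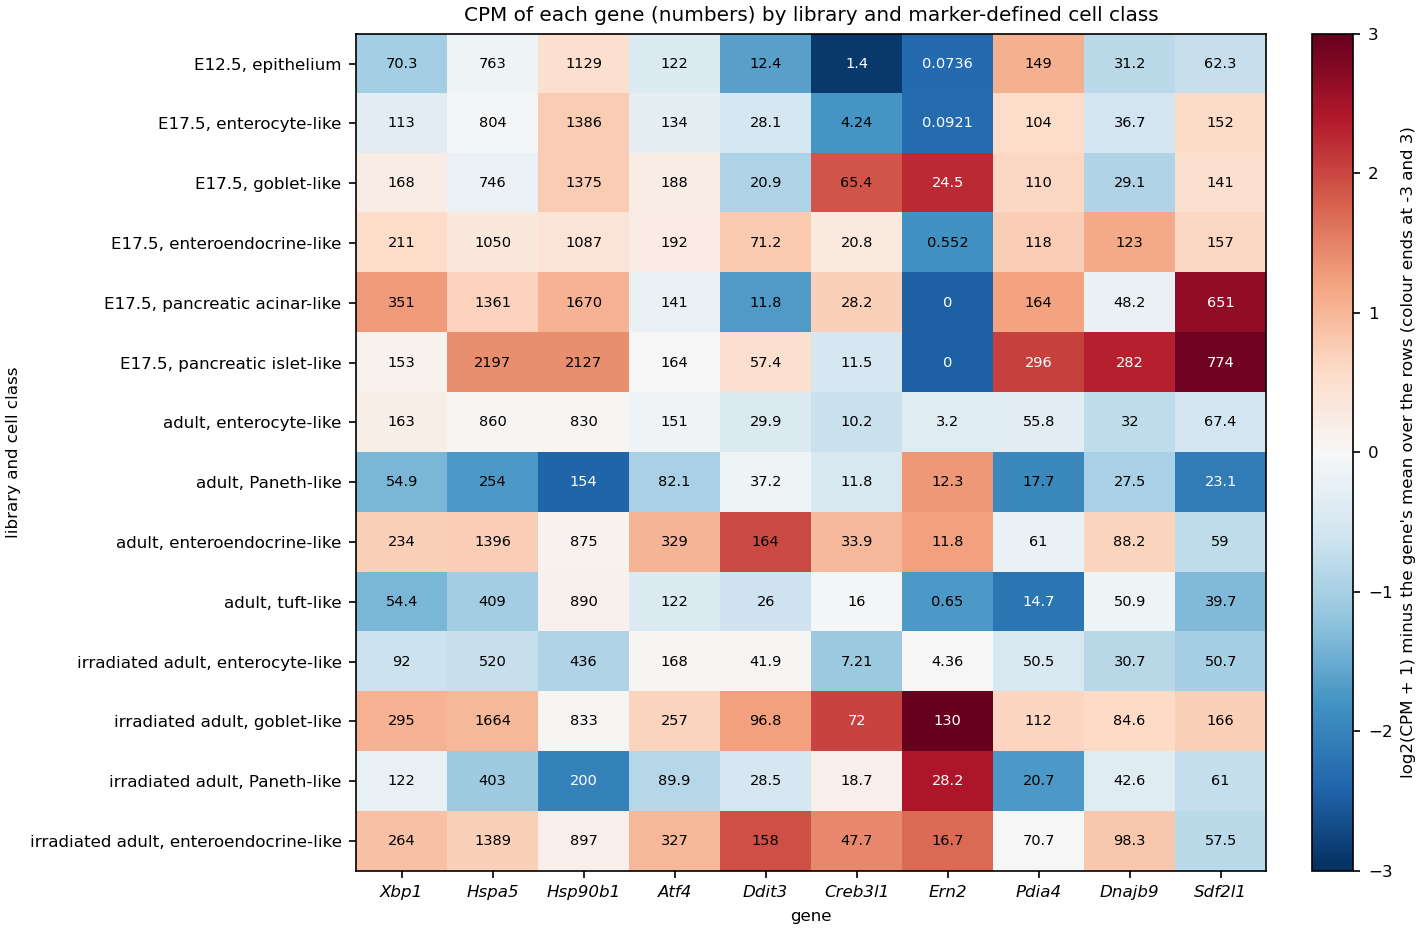
CPM of each member (numbers) in the library-by-class groups (rows), coloured by log2(CPM + 1) minus the gene's mean over the rows, from blue (lower) to red (higher). Islet-like cells are highest for the 5 folding genes, goblet-like cells for Creb3l1 and Ern2 (130 CPM after irradiation), and enteroendocrine-like cells for Ddit3 and Atf4.

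Which members separate a secretory class from absorptive cells was read within a library, against its enterocyte-like cells, so that both sides come from the same preparation. Depth per cell differed between the classes (medians of 26999 UMIs in enterocyte-like and 6576 in enteroendocrine-like cells at E17.5, 31496 and 3190 in the adult), and its part in the ratios was not tested. In E17.5 acinar-like cells 3 of 9 members with enough UMIs were past 2-fold higher: Creb3l1 (28.2 against 4.24 CPM), Sdf2l1 (651 against 152, 4.28-fold [4.09, 4.48]) and Xbp1 (351 against 113, 3.1-fold [2.93, 3.28]). Ddit3 was past 2-fold lower (11.8 against 28.1 CPM, 0.420 times [0.329, 0.529]). The background was 7.78% of genes higher and 31.5% lower, with a median log2 ratio of -0.55 over all genes and 0.65 over the 9 members. The higher members therefore stood against a downward shift of most genes, and the top 20 genes held 26.3% of acinar-like UMIs. The lower Ddit3 call ended under 4 alternatives, with a log2 ratio of -0.81 under TMM scaling.

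Goblet-like cells gave different pictures in the fetus and after irradiation. At E17.5, 2 of 10 members were past 2-fold higher and 0 lower, against backgrounds of 4.31% and 5.20%. These were Creb3l1 (65.4 against 4.24 CPM, 15.4-fold [12.2, 19.6]) and Ern2 (24.5 against 0.0921 CPM, a ratio of 266 [72.1, 2216] that rests on 2 UMIs in the enterocyte-like cells). Hspa5 (746 against 804 CPM), Hsp90b1 (1375 against 1386), Pdia4 (110 against 104) and Sdf2l1 (141 against 152) lay between 0.925 and 1.06 times the enterocyte-like level. In fetal goblet-like cells, then, the sensor and the CREB3 factor were past 2-fold, and the chaperone and folding genes among the members were not.

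In the irradiated adult 8 of 10 members were past 2-fold higher in goblet-like cells and 0 lower, where 4.47% of 8090 genes were higher and 31.4% lower. Ern2 was 130 against 4.36 CPM (29.8-fold [19.4, 47.8]) and Creb3l1 72.0 against 7.21 (9.98-fold [6.95, 14.7]). The folding genes joined them here: Sdf2l1 was 166 against 50.7 CPM (3.28-fold [2.79, 3.87]), Hspa5 1664 against 520 (3.20-fold [3.04, 3.37]), Dnajb9 84.6 against 30.7 (2.75-fold [2.21, 3.43]) and Pdia4 112 against 50.5 (2.22-fold [1.85, 2.65]). Xbp1 was 295 against 92.0 CPM (3.20-fold [2.84, 3.62]) and Ddit3 96.8 against 41.9 (2.31-fold [1.90, 2.81]), while Hsp90b1 (1.91-fold) and Atf4 (1.53-fold) stayed under 2-fold. The comparison leans on which cells stand for enterocytes. With classes taken from each cell's own marker UMIs, which named 163 enterocyte-like cells of which 12 were in the cluster of 100, the log2 ratios of Hspa5 (0.97), Xbp1 (0.74), Ddit3 (0.09) and Dnajb9 (0.00) were under the threshold.

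Set side by side, irradiated and E17.5 goblet-like cells differed past 2-fold in 4 of 10 members, all higher after irradiation, against 7.73% of genes higher and 40.0% lower. Ern2 was 130 against 24.5 CPM (5.31-fold [4.29, 6.59]), Ddit3 96.8 against 20.9 (4.63-fold [3.65, 5.89]), Dnajb9 84.6 against 29.1 (2.91-fold [2.33, 3.63]) and Hspa5 1664 against 746 (2.23-fold [2.13, 2.34]). Creb3l1 (1.10-fold [0.903, 1.34]) and Pdia4 (1.02-fold [0.870, 1.19]) had intervals that include 1. Age, irradiation and library cannot be told apart in this pair, and the summed goblet markers were 257314 CPM in the irradiated and 9092 CPM in the fetal cells, near the 9085 CPM of the unnamed E17.5 cells. There were 16.9 Ern2 UMIs per 100 UMIs of the mucin Muc2 in fetal goblet-like cells and 1.24 after irradiation. With classes from each cell's own markers, which named 505 goblet-like cells at E17.5 of which 58 were in the cluster of 170, the log2 ratios of Ddit3 (0.22), Dnajb9 (0.23) and Hspa5 (0.88) were under the threshold.

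Enteroendocrine-like cells carried Ddit3, Creb3l1 and Dnajb9 past 2-fold above enterocyte-like cells in each of the 3 libraries that hold both. At E17.5 these were 3 of 9 members higher and 0 lower (Ddit3 71.2 against 28.1 CPM, Creb3l1 20.8 against 4.24, Dnajb9 123 against 36.7), against 24.9% and 17.6% of genes. In the adult 5 of 10 were higher and 0 lower, against 34.8% and 13.4%: Ddit3 (164 against 29.9 CPM, 5.48-fold [4.50, 6.75]), Creb3l1 (33.9 against 10.2), Ern2 (11.8 against 3.20), Dnajb9 (88.2 against 32.0) and Atf4 (329 against 151, 2.17-fold [1.98, 2.39]). In the irradiated adult 7 of 10 were higher and 0 lower, against 27.6% and 14.7%, since Xbp1 (264 against 92.0 CPM), Hspa5 (1389 against 520) and Hsp90b1 (897 against 436) joined Ddit3, Creb3l1, Ern2 and Dnajb9. Pdia4 and Sdf2l1 were within 2-fold in all 3. Some of these calls did not hold under other settings: Ddit3 at E17.5 was 0.94 at resolution 2, 0.91 under TMM scaling and 0.95 with each cell weighted equally, and Dnajb9 was 0.93 at E17.5 with own-marker classes and 0.73 in the adult with each cell weighted equally. Atf4 in the adult was 0.76 under TMM scaling. After irradiation the log2 ratio of Hsp90b1 was 0.98 with doublets kept, 0.99 at resolution 0.5 and 0.86 under TMM scaling. The same Hsp90b1 ratio was 0.95 with each cell weighted equally, and 0.74 without mitochondrial, ribosomal protein and class marker genes in the totals.

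**Figure D3:**
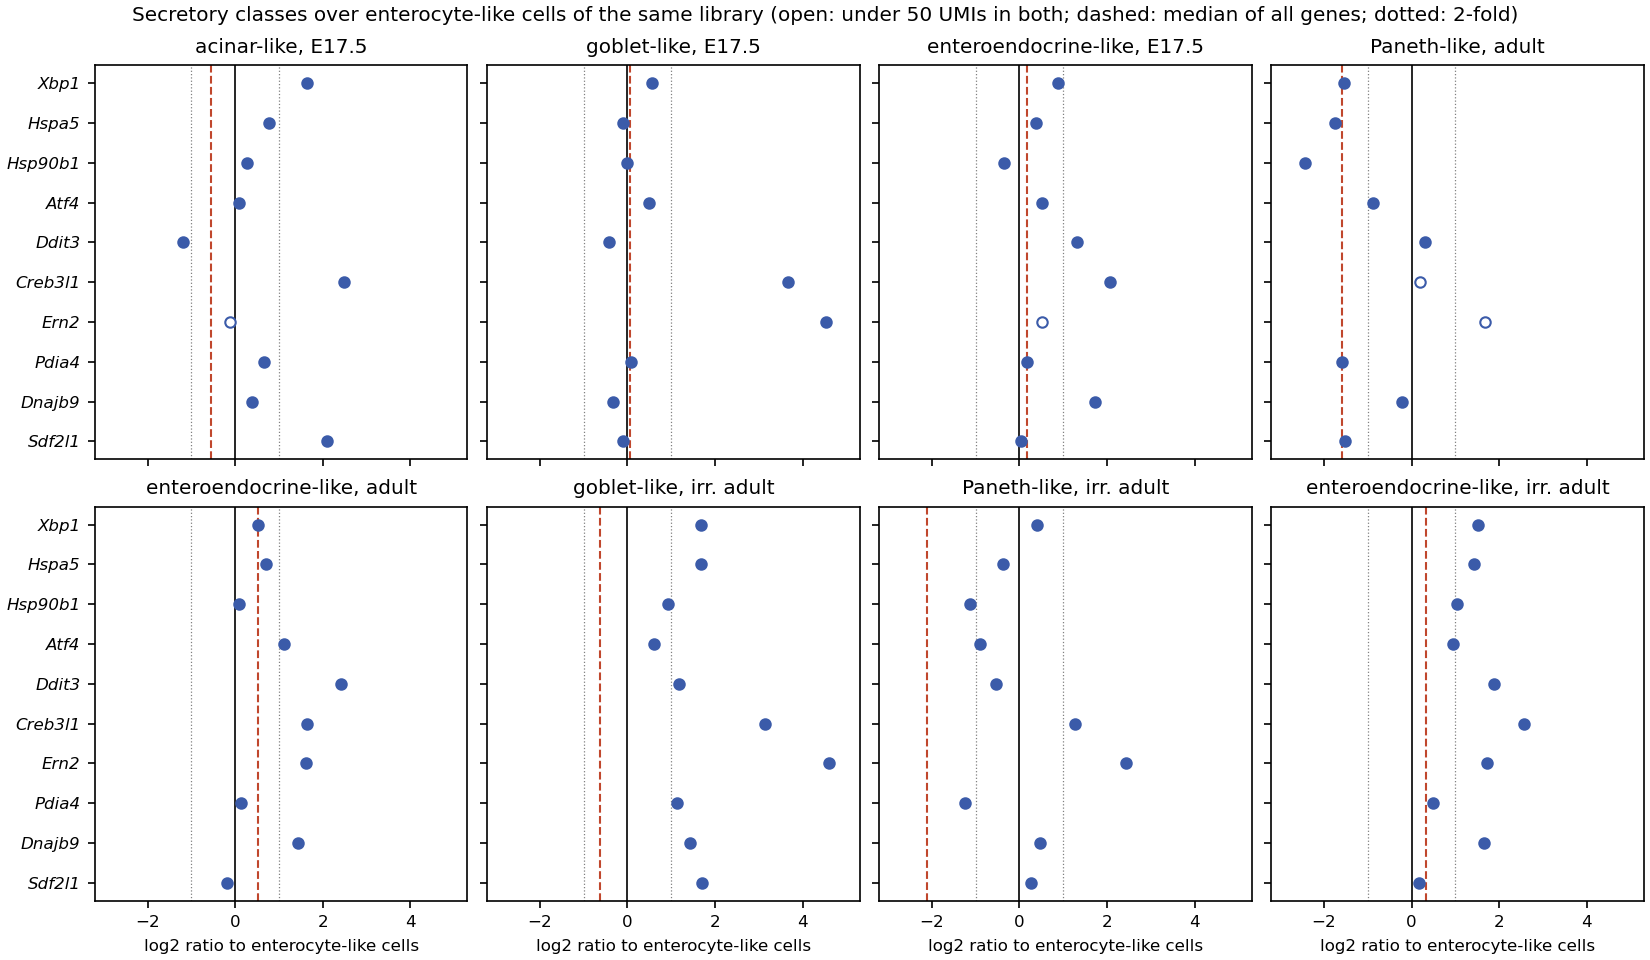
Log2 ratio of each member in secretory classes over the enterocyte-like cells of the same library, with the median of all genes (dashed) and the 2-fold lines (dotted). In irradiated goblet-like cells all members lie right of 0 and 8 lie past 2-fold, whereas in the Paneth-like cells the median of all genes lies at -1.60 (adult) and -2.12 (irradiated adult).

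Both sides of these irradiated ratios are given. The enteroendocrine-like levels were near equal in the irradiated and unirradiated adult (Xbp1 264 and 234 CPM, Hspa5 1389 and 1396, Hsp90b1 897 and 875), whereas the enterocyte-like levels were lower after irradiation (92.0 and 163, 520 and 860, 436 and 830). With own-marker classes the log2 ratios after irradiation were 0.56 (Xbp1), 0.66 (Hspa5), 0.05 (Hsp90b1), 0.91 (Ddit3) and 0.12 (Dnajb9), all under the threshold. Genes of the early response to tissue dissociation moved with the class: the 15 listed (Fos, Jun, Egr1 and others) summed to 8426, 12550 and 11094 CPM in enteroendocrine-like cells of the 3 libraries and to 1989, 2714 and 3101 CPM in enterocyte-like cells. Their part in the Ddit3 and Atf4 levels was not tested.

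From the fetus to the adult, enteroendocrine-like cells showed 2 members past 2-fold higher and 1 lower, against 11.4% and 11.1% of genes. Ddit3 was 164 against 71.2 CPM (2.30-fold [2.09, 2.54]), Ern2 11.8 against 0.552 (21.4-fold [8.20, 79.7], from 4 UMIs at E17.5) and Sdf2l1 59.0 against 157 (0.376 times [0.343, 0.413]). Pdia4, Dnajb9 and Hsp90b1 were also lower in the adult, at 0.515, 0.717 and 0.805 times the fetal level. When 2 E17.5 clusters led by the hormone genes Cck and Nts, set aside because their 10 leading genes held the enterocyte marker Sis and 0 of the listed enteroendocrine markers, were added back, the log2 ratio of Ddit3 was 0.90. Between irradiated and unirradiated adult cells 0 of 10 members were past 2-fold in either direction (1.61% of genes higher, 2.56% lower). All 10 log2 ratios lay between -0.05 (Ddit3) and 0.48 (Creb3l1), and the largest differences, Creb3l1 (1.40-fold [1.25, 1.58]) and Ern2 (1.41-fold [1.16, 1.72]), exceeded counting error. The hormone makeup moved with the library, as Gip-dominant cells were 1012 of the 2222 adult and 436 of the 1998 irradiated cells (77 of 1054 at E17.5), and its part was not tested. In the same cells 6 of 12 p53 target genes were past 2-fold higher and 0 lower, and their sum was 2171 against 1083 CPM.

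Within the enteroendocrine-like class the members differed by dominant hormone, and not all in the same way. Cells were grouped by the hormone gene that held most of their hormone UMIs, where at least 10 were present, which left out 210 of 1054 fetal, 255 of 2222 adult and 309 of 1998 irradiated cells. Sct, the secretin gene, is the dominant one in cells that also include the serotonin-producing enterochromaffin type. Adult Sct-dominant cells (639 cells) had 27.2 CPM of Ern2 [22.6, 32.4] against 1.74 [0.698, 3.58] in Gip-dominant, 1.43 [0.173, 5.15] in Cck-dominant and 1.00 [0.0254, 5.60] in Sst-dominant cells. The 62 Nts-dominant cells had 0 UMIs, with an interval from 0 to 28.4 CPM that overlaps that of the Sct-dominant cells. In the irradiated adult the Sct-dominant cells (693 cells) had 44.3 CPM [39.3, 49.7], and the Gip, Cck, Sst and Tac1 groups lay between 0.462 and 5.79 CPM. At E17.5 the Sct-dominant cells had 1.51 CPM [0.311, 4.41], from 3 UMIs, and the other groups 0 UMIs.

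The same Sct-dominant cells led in Ddit3, at 243 CPM [229, 258] in the adult and 205 [194, 217] after irradiation, where all other groups of those libraries were between 88.4 and 141 CPM. Creb3l1 was 52.4 CPM [45.9, 59.5] and 68.8 [62.6, 75.5] in them and lowest in Gip-dominant cells (13.4 and 23.2 CPM). Xbp1 was 304 and 308 CPM in Sct-dominant cells against 157 and 189 CPM in Gip-dominant cells, the incretin-producing K type. Hspa5 was 1516 and 1476 against 1072 and 1122 CPM. Other groups were near the Sct-dominant level: adult Hspa5 was 1554 (Nts), 1529 (Cck) and 1481 CPM (Sst), and irradiated Tac1-dominant cells had 300 CPM of Xbp1. At E17.5 Gip-dominant cells were not lower than Sct-dominant cells, with 248 against 243 CPM of Xbp1 and 1261 against 1031 CPM of Hspa5. The hormone itself takes part of the total: Gip held 22.7% and 23.9% of UMIs in its cells and Sct 5.86% and 5.40% in its own, which lowers all other levels of Gip-dominant cells, and its part in these differences was not tested. Dnajb9 ran another way, with the highest values in Sst-dominant cells (133 and 138 CPM), the somatostatin-producing D type. Pdia4 was also highest there, at 94.5 and 116 CPM against 52.8 and 52.9 in Sct-dominant cells. So was Sdf2l1 (83.4 and 78.4 against 55.9 and 46.2), near adult Cck-dominant (79.8) and irradiated Tac1-dominant cells (75.2). Hsp90b1 was 855 and 803 CPM in Sct-dominant against 861 and 1024 in Gip-dominant cells. Atf4 was 379 and 407 CPM in Sct-dominant cells, and 469 [359, 603] in adult Nts-dominant cells. In the fetus Gip-dominant cells had the highest Dnajb9 (227 CPM [191, 268]) and Ghrl-dominant cells the highest Sdf2l1 (281 CPM [248, 318]).

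**Figure D4:**
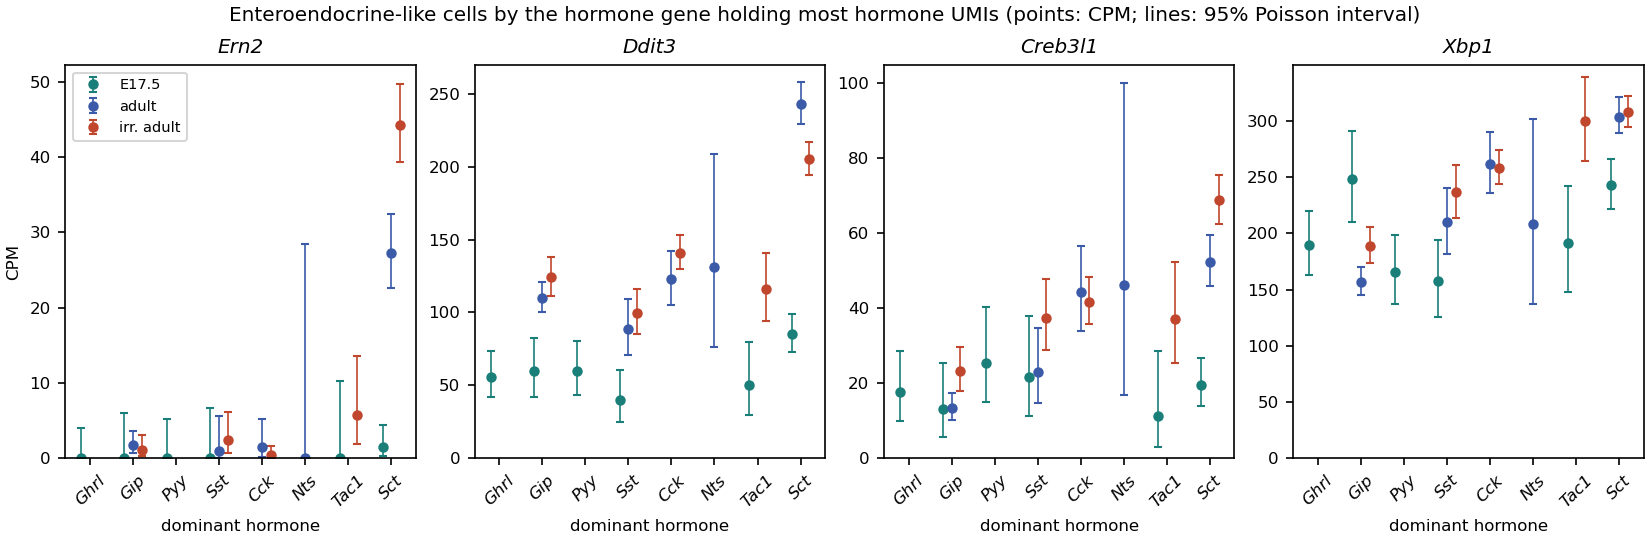
Ern2, Ddit3, Creb3l1 and Xbp1 in enteroendocrine-like cells grouped by dominant hormone gene, in CPM with 95% Poisson intervals, for E17.5, adult and irradiated adult. Sct-dominant cells of both adult libraries have the highest values in Ern2 (27.2 and 44.3 CPM) and Ddit3 (243 and 205 CPM), and the adult Nts-dominant cells have an Ern2 interval reaching 28.4 CPM.

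By cluster, Ern2 of the adult enteroendocrine-like cells was concentrated in 2 clusters that had Chga and the serotonin-synthesis gene Tph1 among their leading genes, at 32.9 CPM (323 cells) and 50 CPM (257 cells), and in the irradiated adult in 1 cluster of 576 cells at 60.7 CPM. After each cell was thinned to 2000 UMIs, 2.82% [2.10, 3.72] of 1735 adult enteroendocrine-like cells had an Ern2 UMI against 0.111% [0.00281, 0.617] of 901 tuft-like cells, which serve as a class expected to lack it (median depth 3190 and 4111 UMIs before thinning, unthinned shares 5.40% and 0.205%). After irradiation the share was 3.65% [2.83, 4.63] in enteroendocrine-like and 40.0% [28.0, 52.9] in goblet-like cells, and in Paneth-like cells 14.3% [7.83, 23.2]. Per 100 UMIs of Muc2 there were 1.24 Ern2 UMIs in irradiated goblet-like, 75.1 in irradiated enteroendocrine-like and 5.04 in irradiated Paneth-like cells. In the adult, which has no goblet class, the values were 387 in enteroendocrine-like and 4.86 in Paneth-like cells. The part of free RNA in these levels was not tested.

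In Paneth-like cells the direction of several members depended on the total used. Their 20 most abundant genes, mainly defensins, held 72.3% of UMIs in the adult and 80.4% after irradiation, and against enterocyte-like cells the median gene had a log2 ratio of -1.60 and -2.12. In the adult 0 of 8 members were past 2-fold higher and 5 lower (Xbp1, Hspa5, Hsp90b1, Pdia4, Sdf2l1), against 2.09% of genes higher and 80.5% lower. In the irradiated adult 2 of 10 were higher, Ern2 (28.2 against 4.36 CPM) and Creb3l1 (18.7 against 7.21), and 2 lower, Hsp90b1 (200 against 436) and Pdia4 (20.7 against 50.5), against 1.45% and 90.9%. Per 1000000 UMIs outside each group's 20 most abundant genes, a scale chosen after seeing the data, Hspa5 turned from lower to higher in the irradiated library: Xbp1 was 622 in Paneth-like and 109 in enterocyte-like cells, Hspa5 2056 and 615, Sdf2l1 311 and 59.9, and Dnajb9 217 and 36.4. On the same scale the adult Paneth-like cells were level with the enterocyte-like cells for Xbp1 (198 and 202) and Sdf2l1 (83.3 and 83.8) and above them for Dnajb9 (99 and 39.7).

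**Figure D5:**
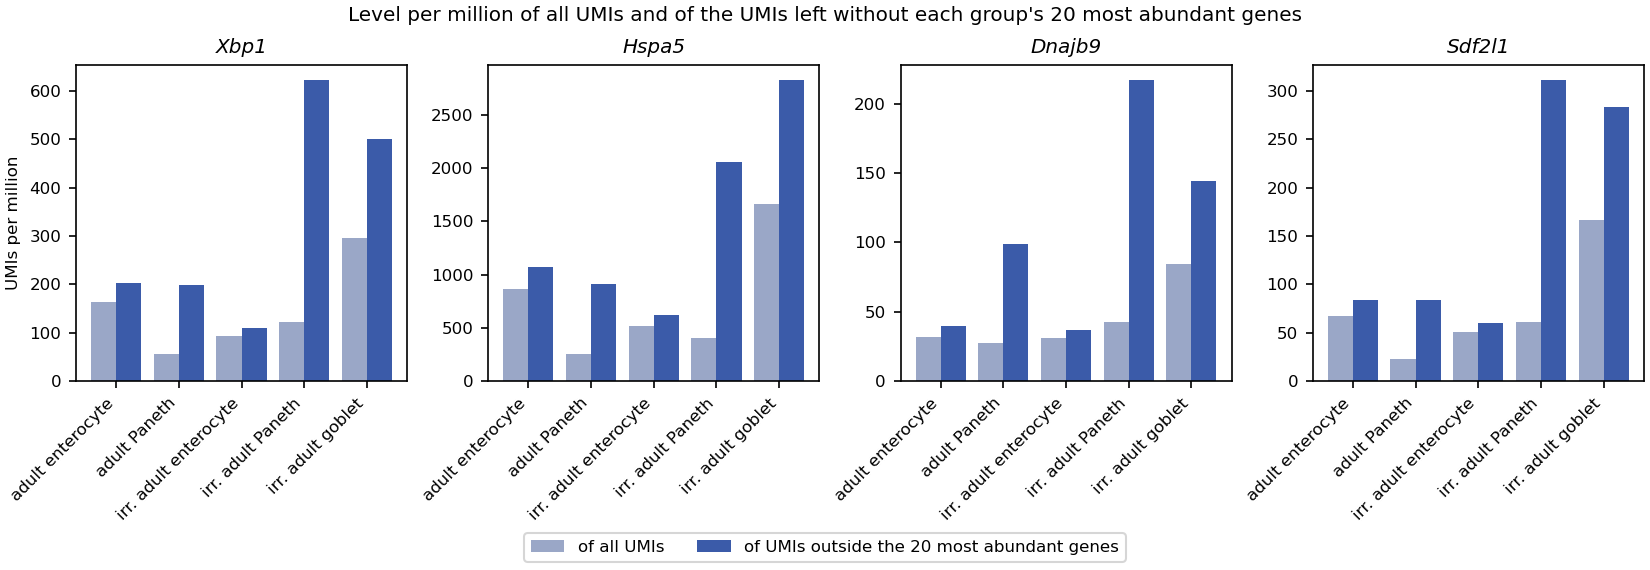
Xbp1, Hspa5, Dnajb9 and Sdf2l1 per 1000000 of all UMIs (light bars) and per 1000000 of the UMIs outside each group's 20 most abundant genes (dark bars), in enterocyte-like, Paneth-like and goblet-like cells of the adult libraries. Irradiated Paneth-like cells lie at 122 for Xbp1 on the first scale and at 622 on the second, where enterocyte-like cells lie at 92.0 and 109.

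Between the irradiated and the unirradiated library, Paneth-like cells had 3 of 10 members past 2-fold higher and 0 lower, against 4.68% of genes higher and 19.8% lower. Sdf2l1 was 61.0 against 23.1 CPM (2.64-fold [2.10, 3.35]), Ern2 28.2 against 12.3 (2.29-fold [1.66, 3.20]) and Xbp1 122 against 54.9 (2.22-fold [1.91, 2.59]). Hspa5 (1.59-fold), Dnajb9 (1.55-fold) and Creb3l1 (1.58-fold) were higher beyond counting error, and Ddit3 was 0.765 times [0.615, 0.953] the adult level. Depth differed between the groups: the irradiated cells had a median of 98803 UMIs and the adult ones 2949, in 2 clusters of 138 cells (median 2020, Xbp1 93.9 CPM) and 73 cells (median 30480, Xbp1 51.3 CPM). With each cell weighted equally, the log2 ratios of Xbp1 (0.68) and Sdf2l1 (0.53) were under the threshold.

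In enterocyte-like cells 0 of 8 members with enough UMIs were past 2-fold in either direction after irradiation, against 17.5% of genes higher and 9.64% lower. Hsp90b1 (436 against 830 CPM, 0.525 times [0.497, 0.555]), Xbp1 (92.0 against 163, 0.566 times [0.5, 0.641]) and Hspa5 (520 against 860, 0.605 times [0.574, 0.637]) were lower beyond counting error, and Ddit3 was higher (41.9 against 29.9 CPM, 1.40-fold [1.10, 1.79]). The lower enterocyte marker level of the irradiated cluster, given above, moves with these values, and its part was not tested. Among 22 listed targets of ATF4 and the integrated stress response, 10 of 18 with enough UMIs were past 2-fold higher in these cells and 1 lower, with a median log2 ratio of 1.55 against 0.20 over all genes. They included the serine-synthesis gene Phgdh (87.9 against 4.07 CPM), the stress-induced Sesn2 (40.0 against 3.78 CPM) and Ddit4 (80.7 against 11.3 CPM). Sesn2 and Ddit4 are also known p53 targets, and 9 of 12 listed p53 targets were past 2-fold higher in the same cells. Atf4 itself was 168 against 151 CPM (1.11-fold [0.998, 1.24]).

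The rest of the secretory pathway was read from lists kept apart from the members. In acinar-like against enterocyte-like cells, 13 of 19 chaperone and disulfide isomerase genes were past 2-fold higher and 1 lower, 8 of 14 genes of ER-associated degradation were higher and 0 lower, and 9 of 15 translocation and signal peptide genes were higher and 0 lower. Examples are the prolyl isomerase Fkbp11 (1500 against 54.2 CPM), the oxidase Ero1lb (80.8 against 1.57 CPM), the degradation factors Edem2 (525 against 36.6 CPM) and Derl3 (58.3 against 0.783 CPM), and the signal peptidase subunit Spcs3 (219 against 42.5 CPM). Bhlha15 (MIST1), a factor of professional secretory cells, was 81.1 against 0.138 CPM. The median log2 ratios of these 3 lists were 1.35, 1.27 and 1.35, against -0.55 over all genes and 0.65 over the members. In ER-to-Golgi transport 4 of 14 were higher and 1 lower, the lower one being Sar1b (85.4 against 355 CPM), which chylomicron export in enterocytes needs.

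In irradiated goblet-like cells 11 of 18 chaperone and isomerase genes were past 2-fold higher than in enterocyte-like cells and 0 lower, among them Agr2, the isomerase that folds mucins (16492 against 360 CPM), and Txndc5 (650 against 60.2 CPM). At E17.5 the same comparison gave 4 of 18 higher and 0 lower, with Agr2 at 3753 against 14.3 CPM. In adult enteroendocrine-like cells 5 of 19 of these genes were higher than in enterocyte-like cells and 2 lower, P4hb (242 against 811 CPM) and Ppib (237 against 586 CPM), a smaller share higher than the 34.8% of all genes, with a median log2 ratio of -0.26 against 0.52 over all genes. From E17.5 to the adult, 0 of 15 translocation and signal peptide genes were higher in enteroendocrine-like cells and 6 lower, such as Ssr2 (219 against 847 CPM) and Sec61b (404 against 1129 CPM), where Sdf2l1 was 0.376 times its fetal level.

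Among the sensors and CREB3 family factors the classes divided by paralog. Creb3l3 (CREBH), the liver and gut factor of lipid metabolism, was 212 CPM in E17.5 and 218 CPM in adult enterocyte-like cells and 22.0 CPM or less in the E17.5 goblet-like (22.0), enteroendocrine-like (2.21) and acinar-like cells (1.15). Creb3l4 was 49.3 CPM in E17.5 goblet-like cells against 0.276 in enterocyte-like cells, beside 65.4 against 4.24 CPM for Creb3l1. Ern1, which encodes the widely expressed IRE1α, was 28.2 CPM in adult enteroendocrine-like cells against 13.4 in enterocyte-like cells, and Atf6 was 71.0 against 15.1 CPM at E17.5. Downstream of Atf4, 9 of 16 tested ATF4 targets were past 2-fold higher in adult enteroendocrine-like than in enterocyte-like cells and 4 lower. Their median log2 ratio was 1.65, against 0.52 over all genes. These 9 include Atf3 (723 against 128 CPM) and the eIF2α phosphatase subunit Ppp1r15a (294 against 41.3 CPM). The other libraries differed from the adult. At E17.5, 7 of 19 targets were higher and 5 lower (median 0.66 against 0.18 over all genes). In the irradiated adult 3 of 20 were higher and 6 lower (median -0.01 against 0.34 over all genes). Atf3 and Ppp1r15a also belong to the early response that dissociation induces.

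Over 19 library-by-class groups of at least 50 cells, each member was set beside 6590 other genes by the correlation of log2(CPM + 10), as a description, since groups of 1 library share its preparation and their depths differ. The groups include the irradiated tuft-like cells, which also held enteroendocrine markers, and their part in the correlations was not tested. Sdf2l1 was most like Sec61b (r = 0.94), Creld2 (0.94) and Ssr4 (0.90), and Pdia4 most like Ddost (0.93), Tmed2 (0.93) and Ostc (0.92), all genes of the secretory pathway. Hspa5 was most like the ER chaperone gene Calr (0.93), Xbp1 most like Txndc11 (0.90), Gmppa (0.87) and Rab3d (0.85), and Hsp90b1 most like Ubxn4 (0.91). Ern2 was nearest Slc12a8 (0.94) and the goblet genes Fcgbp (0.91) and Rep15 (0.91). Ddit3 was instead close to Syt7 (0.92) and Syn2 (0.91), genes of regulated exocytosis and synaptic vesicles, and Dnajb9 was nearest Rab3a (0.90), Iapp (0.88) and Gadd45g (0.88). Atf4 was nearest Vps50 (0.89), and Creb3l1 nearest Slc50a1 (0.83). Between members the highest values were 0.80 for Xbp1 with Hspa5 and 0.80 for Pdia4 with Sdf2l1, and the lowest was -0.33 for Hsp90b1 with Ern2.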

How the data were processed

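Single-cell RNA was measured in 4 libraries, 1 per group. The authors deposited UMI counts per gene and barcode, made with Cell Ranger 3.1.0 on mm10 per the submitters' processing notes. The counts were used as deposited. Cells needed at least 500 genes and no more than 20% mitochondrial UMIs, and Scrublet's highest scorers were removed at 0.8% per 1000 barcodes. Each library was clustered with scanpy 1.11.5 and leidenalg 0.10.2 (2000 variable genes, 30 components, 20 neighbours, resolution 1). Clusters were named from 16 marker lists (score at least 0.5, at least 3 markers at 50 CPM), by thresholds set after the clusters were seen. Clusters led by another class, or low in UMIs with no own marker among their leading genes, were left unnamed. The members and the 8 gene lists were chosen with earlier results of these data known. Named from each list were up to 3 genes each way past 2-fold with at least 200 UMIs in the higher group, and for each member up to 3 genes most like it (1 gene is not reported here). Shares carry Clopper-Pearson 95% intervals. Alternatives were other filters, resolutions, scalings (edgeR 4.0.16), pseudocounts, minimums, thinning depths and cell naming. Of 31054 features 30934 matched GENCODE M21. Computation used python 3.11.15 and R 4.3.3, and the ratios were tested on simulated data.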

Additional observations from a re-analysis of the deposited data

Results flagged for a closer look

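Between the irradiated and unirradiated adult libraries, 2 members differed in opposite directions in different cell classes, each beyond counting error and past 2-fold in at least 1 class, and the difference between the classes was not tested, since each library stands alone. Xbp1 had a log2 ratio of 1.14 in Paneth-like cells and 0.17 in enteroendocrine-like cells, and -0.81 in enterocyte-like cells. Sdf2l1 had 1.36 in Paneth-like cells and -0.41 in enterocyte-like cells. In UMIs per cell, Xbp1 was 9.19 in irradiated Paneth-like cells against 1.01 in the adult ones, and 4.85 against 6.28 in enterocyte-like cells. UMIs per cell are not scaled for depth. Median depth was 98803 against 2949 UMIs in the Paneth-like cells and 49348 against 31496 UMIs in the enterocyte-like cells.
Hspa5, Hsp90b1 and Ddit3 also differed in opposite directions in Paneth-like and enterocyte-like cells beyond counting error, but within 2-fold in both.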

How the results depend on the processing

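Against 17 alternatives, single members gave 1259 values on the same side of 2-fold, 84 that fell under it, 53 that passed it and 17 that turned direction. In irradiated Paneth-like over enterocyte-like cells, TMM scaling and totals without the 20 most abundant genes turned Hspa5 to 1.74 and 1.74 (log2), Hsp90b1 to 0.99 and 0.98, Atf4 to 1.20 and 1.20, Ddit3 to 1.51 and 1.53 and Pdia4 to 0.80 and 0.81, and in the adult Dnajb9 to 1.12 and 1.30. These scalings moved the median of all genes by 1.95 and 1.93 in the former and by 1.30 and 1.45 in the latter. Classes from each cell's own markers turned Ddit3 in E17.5 goblet-like over enterocyte-like cells to 1.27, Dnajb9 in irradiated goblet-like cells to 0.00 and Creb3l1 in irradiated Paneth-like cells to -0.11, and Creb3l1 and Dnajb9 in irradiated over adult enterocyte-like cells to 1.55 and 1.12; the cause was not tested. The count between libraries was 8, and 2 with 10 CPM added; the counts between classes (38) and within classes (10) stayed within 1.5 times. Ern2 shares followed the depth kept: adult enteroendocrine-like cells gave 2.82% at 2000 UMIs, 1.47% at 1000, 5.15% at 4000 and 5.40% unthinned, and tuft-like cells 0.111% at 2000 and 0 at 4000. All 160 hormone-group levels kept within their intervals at 30 hormone UMIs where that group could be formed. The stricter cell filter left no value for 7 comparisons, resolution 0.5 for 3 and own-marker classes for 2. The alternatives without the 20 most abundant genes, with at least 5000 UMIs per cell, with first names kept and without the Ppy-led cluster were chosen after seeing the data. No paired analysis was possible because each group has 1 library.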

Other observations

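Some cell classes entered no comparison between classes, although the epithelial ones are part of the library totals. The 100 crypt base columnar stem-like cells of the adult, which hold the dividing Olfm4-positive crypt cells, had 8.13 CPM of Ern2 [5.83, 11], 83.1 CPM of Sdf2l1 [75.3, 91.4] and 16.1 CPM of Ddit3 [12.8, 20]. Their Hspa5 level was 603 CPM [582, 625]. Of the non-epithelial cells at E17.5, 118 mesenchymal-like cells had 51.4 CPM of Creb3l1 [36.5, 70.2], a factor known from collagen-secreting cells, and 119 smooth muscle-like cells had 8.06 CPM [3.24, 16.6]. The 408 unnamed E17.5 cells, in clusters led by Cck and Nts, had 118 CPM of Ddit3 [108, 130] and 2 UMIs of Ern2.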
